A study of Mus musculus with 6 samples.

Results

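The genes described here are the myogenic regulatory factors Myod1, Myf5, Myog and Myf6, the satellite cell factor Pax7, the MEF2 genes Mef2a, Mef2c and Mef2d, and Cdh15, which encodes the muscle adhesion protein M-cadherin. They were chosen by name and matched by symbol through the platform annotation of the array. All 9 had a probe, 10 probes in total, among 18563 genes with a named probe, and 8 of the 9 could be tested among 14732 tested genes. RNA of hindlimb muscle from 3 mice that lacked Rpt3 in muscle and from 3 control mice was hybridized to CodeLink mouse whole-genome arrays, with 1 array per mouse. Rpt3, with the gene symbol Psmc4, is an ATPase subunit of the 26S proteasome.

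All mice were females of 6 weeks. The Rpt3 null group carried floxed Rpt3 alleles and Mlc1f-Cre, and according to the study the controls carried Mlc1f-Cre with wild-type Rpt3 alleles, whereas the labels give the same strain, mlc1f-Cre/ Rpt3-floxed, for both groups. Cre is driven by the myosin light chain 1f promoter, which in adults is active in fast fibers, and the study takes excision by this Cre to be partial, so that some muscle nuclei may have kept Rpt3. The labels name the tibialis anterior and the study names the gastrocnemius for its array. Both are fast muscles, and the arrays held all 12 fast fiber marker genes with a named probe on 3 or more arrays above background, while of the heart genes Myh6 and Myl7 were not and Tnni3 was.

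The 4 myogenic regulatory factors are basic helix-loop-helix proteins that bind the E-box of muscle genes together with E proteins. Myf5 and MyoD, the product of Myod1, commit cells to the muscle lineage, myogenin, the product of Myog, drives myoblasts into differentiation, and MRF4, the product of Myf6, is the most abundant of the family in adult fibers. The MEF2 proteins are MADS-box factors that act with them on the same promoters, Pax7 marks the satellite cells that lie on the fibers as stem cells, and M-cadherin joins satellite cells to fibers and fusing myoblasts to each other. In adult muscle myogenin RNA is low and is known to rise after denervation and during regeneration.

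Psmc4 had a log2 intensity of 9.78 to 10.01 in the Rpt3 null mice and of 10.91 to 11.16 in the control mice, a log2 fold change of -1.17 (limma, adjusted p = 0.000309). Between 57.0% and 74.5% of the transcript probes of an array were above background, a spot being above background when the scanner's quality flag marked it neither as near background nor as contaminated or masked. The dimmest array was that of control mouse 2. Intensities were background corrected, quantile normalized and put on the log2 scale, and limma was run on the genes whose probe passed this criterion on 3 or more of the 6 arrays. Each p-value was adjusted over all 14732 tested genes. Changes are given as Rpt3 null minus control.

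Myog and Myf6 were higher in the Rpt3 null mice, Myog by 2.18-fold (95% confidence interval 1.58 to 3.00) and Myf6 by 1.42-fold, although with the arrays centred on Actb neither passed and Myf6 had a log2 fold change of -0.07. They were 2 of the 8 tested genes, and 12.7% of all tested genes passed in that direction. None of the 8 was lower, where 6.56% of all tested genes were. Without adjustment 5 of the 8 were higher and 0 lower at a p under 0.05 from limma, against 19.2% and 12.9% of all tested genes. The median log2 fold change of the 8 genes was 0.38, and that of all tested genes was -0.01.

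**Figure D1:**
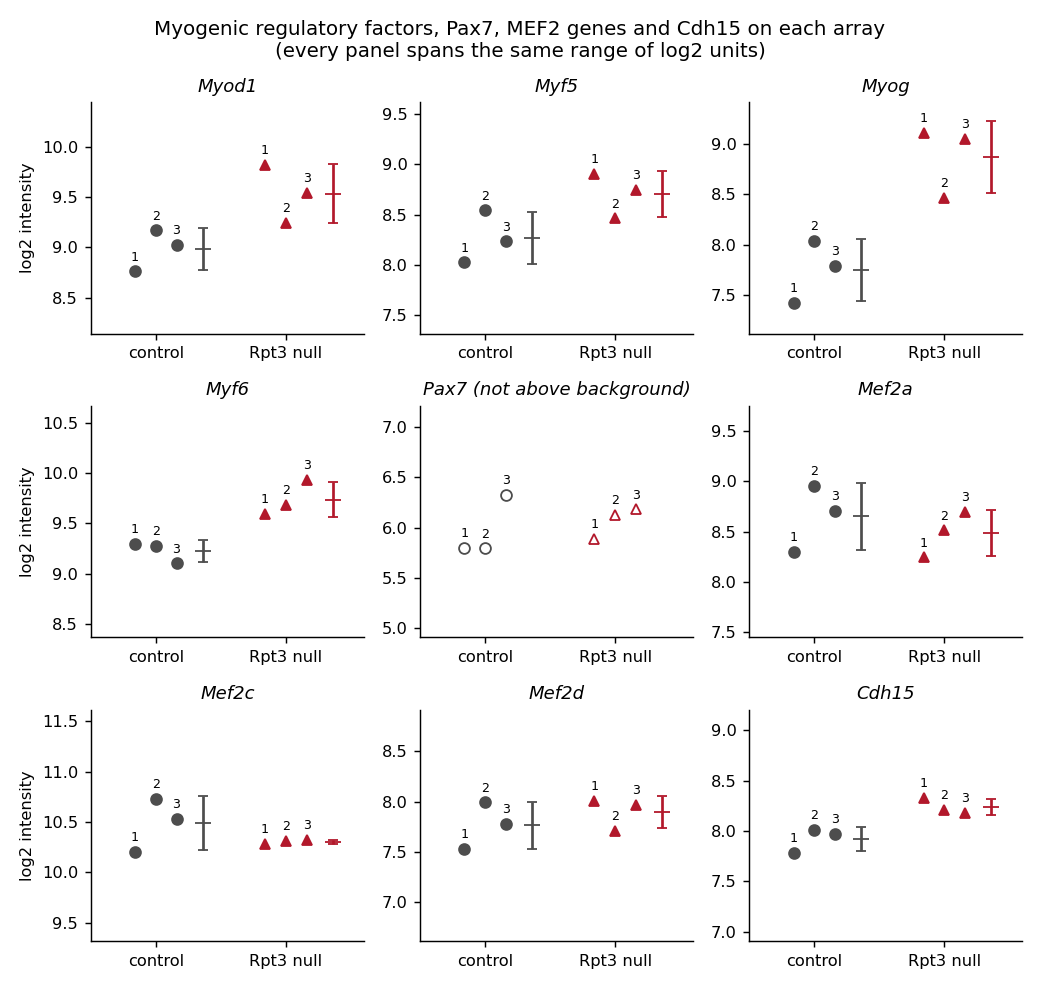
Log2 intensity of each of the 9 genes on every array, with the control mice as gray circles and the Rpt3 null mice as red triangles, each numbered by mouse. Horizontal marks and bars are the mean and SD of 3 mice, every panel covers the same span of the vertical axis, and the open symbols of Pax7 mark spots near background. For Myog, Myf6, Myod1 and Cdh15 all Rpt3 null points lie above all control points.

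Myog, the differentiation factor, had the largest difference of the 8. Its scanner intensity, with the local background subtracted and before any normalization, was 550.8, 341.2 and 531.7 in Rpt3 null mice 1, 2 and 3. In control mice 1, 2 and 3 it was 158.5, 129.0 and 155.1. Every Rpt3 null mouse was thus above every control mouse before normalization, the lowest of them being mouse 2. All 6 spots were flagged as good.

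After normalization the log2 intensity of Myog was 9.11, 8.46 and 9.05 in the Rpt3 null mice, with a mean of 8.87 ± 0.36 (SD, n = 3). In the control mice it was 7.42, 8.03 and 7.79, with a mean of 7.75 ± 0.31 (SD, n = 3). The groups did not overlap, and the gap lay between Rpt3 null mouse 2 and control mouse 2. The log2 fold change was 1.12 ± 0.21 (SE, adjusted p = 0.00445 from limma) and was larger than that of 97.7% of the tested genes. It stayed between 0.97 and 1.33 when any 1 of the 6 arrays was left out, and each of these values passed the test. In the authors' own normalized table, on a linear scale, the values were 507.5, 304.4 and 485.1 in the Rpt3 null mice and 120.3, 213.3 and 171.3 in the control mice, again without overlap. The log2 fold change from that table was 1.36 (limma, adjusted p = 0.0171).

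The bases before the start of Myog hold letters that match the E-box and the MEF2 core. They are shown for that reason beside those of Cdh15, a gene of the adhesion step. The RefSeq sequences of build GRCm38.p6 are given for the 250 bases before the start, 5′ to 3′ on the strand of the gene (+ for both). Capitals mark E-boxes, written CANNTG, which read the same on both strands, and the MEF2 core CTANNNNTA, searched on both strands.
Myog, chr1:134289754-134290003: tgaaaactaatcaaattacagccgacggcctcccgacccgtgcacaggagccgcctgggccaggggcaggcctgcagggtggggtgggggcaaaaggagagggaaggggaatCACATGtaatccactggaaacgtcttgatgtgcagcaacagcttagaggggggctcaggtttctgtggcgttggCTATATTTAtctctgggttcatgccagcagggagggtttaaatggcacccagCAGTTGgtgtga
Cdh15, chr8:122848124-122848373: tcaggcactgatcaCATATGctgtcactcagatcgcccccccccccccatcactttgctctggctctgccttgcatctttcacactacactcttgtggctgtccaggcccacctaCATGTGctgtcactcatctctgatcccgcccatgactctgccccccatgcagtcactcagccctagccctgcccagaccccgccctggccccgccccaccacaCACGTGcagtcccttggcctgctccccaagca

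In the window of Myog the E-boxes began 138 and 12 bases before the start and the MEF2 core 64 bases before it. The window of Cdh15 held 3 E-boxes, which began 236, 135 and 32 bases before the start, and no MEF2 core. Of the 9 genes 7 had an entry, with 9 windows. Among them Myf5 had no E-box and a pair of overlapping matches to the wide MEF2 core. Mef2c had E-boxes in 2 of its 3 windows, 1 of which also held a match to that core 191 bases before the start. Pax7, Mef2a and Mef2d had neither motif. The matches of Myf5 (CTAGGTTTA and TAGGTTTAG) and Mef2c (CTAACGATA) had G or C among the middle bases, and that of Myog (CTATATTTA) only A and T. Of all 32851 windows of this length 66.2% held an E-box and 12.2% held 3 or more. The wide MEF2 core, with any middle bases, was in 18.96%, and 13.0% held both motifs. These matches are letters in a window and were not measured as binding.

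Myf6, the factor of the mature fiber, was the other gene that passed. Its log2 intensity was 9.59, 9.68 and 9.93 in Rpt3 null mice 1, 2 and 3, with a mean of 9.74 ± 0.18 (SD, n = 3). In the control mice it was 9.30, 9.28 and 9.10, with a mean of 9.23 ± 0.11 (SD, n = 3). The groups did not overlap, and Rpt3 null mouse 3 was the highest. All its spots were flagged as good. Its log2 fold change was 0.51 ± 0.14 (SE, adjusted p = 0.0272 from limma). The call rested on few arrays, since the adjusted p from limma was 0.0631 without Rpt3 null mouse 2, 0.118 without Rpt3 null mouse 3 and 0.14 without control mouse 3. With the authors' normalized values the log2 fold change was 0.54 (limma, adjusted p = 0.0605).

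Before normalization the intensity of Myf6 was 812.0, 853.4 and 1064 in the Rpt3 null mice. It was 697.3, 370.3 and 442.5 in the control mice. All Rpt3 null mice were above all control mice on that scale too, with control mouse 1 nearest to them. Myf5 and Myf6 are neighbors on chromosome 10, with 0 annotated protein-coding genes between them, and each had its own probe.

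Myod1 lay at the edge of the threshold. Its log2 intensity was 9.82, 9.24 and 9.54 in the Rpt3 null mice (9.53 ± 0.29, SD, n = 3). In the control mice it was 8.76, 9.17 and 9.02 (8.98 ± 0.21, SD, n = 3). All spots were flagged as good, and the groups were separated only narrowly, by the distance between Rpt3 null mouse 2 and control mouse 2. Limma gave a log2 fold change of 0.55 ± 0.17 (SE, adjusted p = 0.0518 from limma), with a 95% confidence interval from 0.16 to 0.94. It was 0.70 without Rpt3 null mouse 2 (limma, adjusted p = 0.0313) and 0.64 without control mouse 2 (limma, adjusted p = 0.0235). With the arrays centred on Actb it was -0.04. Before normalization the intensity of Myod1 was 975.2, 618.7 and 786.6 in the Rpt3 null mice and 479.3, 336.1 and 414.9 in the control mice. On that scale the lowest Rpt3 null mouse, mouse 2, stood well clear of the highest control, mouse 1.

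Myf5, the other determination gene, did not pass. Its log2 intensity was 8.91, 8.46 and 8.74 in the Rpt3 null mice and 8.02, 8.54 and 8.23 in the control mice. Control mouse 2 was above Rpt3 null mouse 2, so the groups overlapped. Its log2 fold change was 0.44 ± 0.17 (SE, adjusted p = 0.106 from limma), with a 95% confidence interval from 0.06 to 0.82. Without control mouse 2 it was 0.58 (limma, adjusted p = 0.0251), and with Actb centring it was -0.22. Before normalization its intensity was 467.8, 341.2 and 410.5 in the Rpt3 null mice and 274.9, 201.9 and 226.9 in the control mice, without overlap, from good spots on all arrays. Myf5 thus overlapped between groups after normalization, where control mouse 2 went from the lowest of the controls to the highest.

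Whether Myog differed from its relatives was examined from the difference in log2 intensity between Myog and each of them on the same array, after the fold changes had been seen. The difference of Myog to Myf6 was -0.49, -1.22 and -0.89 in the Rpt3 null mice and -1.88, -1.25 and -1.31 in the control mice. These ranges met closely, between Rpt3 null mouse 2 and control mouse 2, without overlapping. The log2 fold change of Myog exceeded that of Myf6 by 0.61, that of Myod1 by 0.57 and that of Myf5 by 0.69. In each of the 3 pairs the exact two-sided permutation p was 0.1, also after Benjamini-Hochberg adjustment, which is the smallest that 3 mice against 3 allow, so the test could not reach 0.05.

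**Figure D2:**
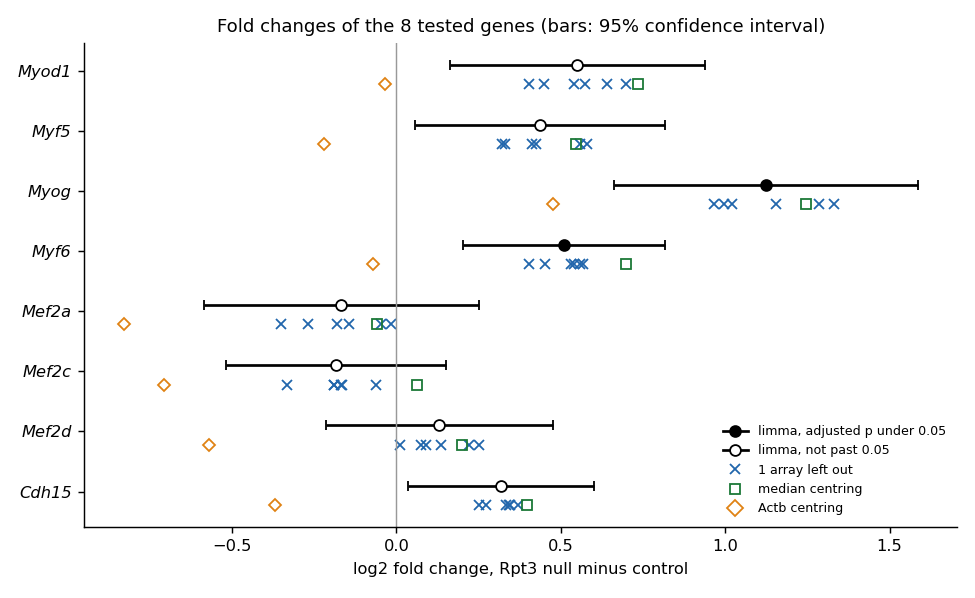
Log2 fold change, Rpt3 null minus control, of the 8 tested genes with the 95% confidence interval from limma (black, filled where the adjusted p was under 0.05), and the same value with 1 array left out (blue crosses), with median centring (green squares) and with Actb centring (orange diamonds). Myog is to the right of 0 under all of these settings, whereas with Actb centring the other genes are to the left of it.

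Cdh15, the M-cadherin gene, had 1 spot of irregular shape, on the array of Rpt3 null mouse 1, and good spots on the other arrays. Its log2 intensity was 8.33, 8.21 and 8.18 in the Rpt3 null mice (8.24 ± 0.08, SD, n = 3). In the control mice it was 7.78, 8.01 and 7.97 (7.92 ± 0.12, SD, n = 3). The groups did not overlap, but the difference was small, with a log2 fold change of 0.32 ± 0.13 (SE, adjusted p = 0.113 from limma), with a 95% confidence interval from 0.04 to 0.60, and with Actb centring it was -0.37. Before normalization its intensity was 285.9, 279.6 and 253.8 in the Rpt3 null mice and 222.0, 126.7 and 181.1 in the control mice. The controls varied more than the Rpt3 null mice on that scale, and control mouse 2 was again the lowest.

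Pax7, the satellite cell factor, was flagged as near background on all 6 arrays and was not tested. Its intensity before normalization was 6.15, 19.2 and 19.7 in the Rpt3 null mice and 3.08, 0.857 and 24.0 in the control mice. On the same arrays the 95th percentile of the 319 or 320 negative control spots was between 20.8 and 26.8. Only control mouse 3 exceeded that of its own array, and no fold change is given. Each probe of the other 8 genes had an intensity of at least 80.4 on every array.

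**Figure D3:**
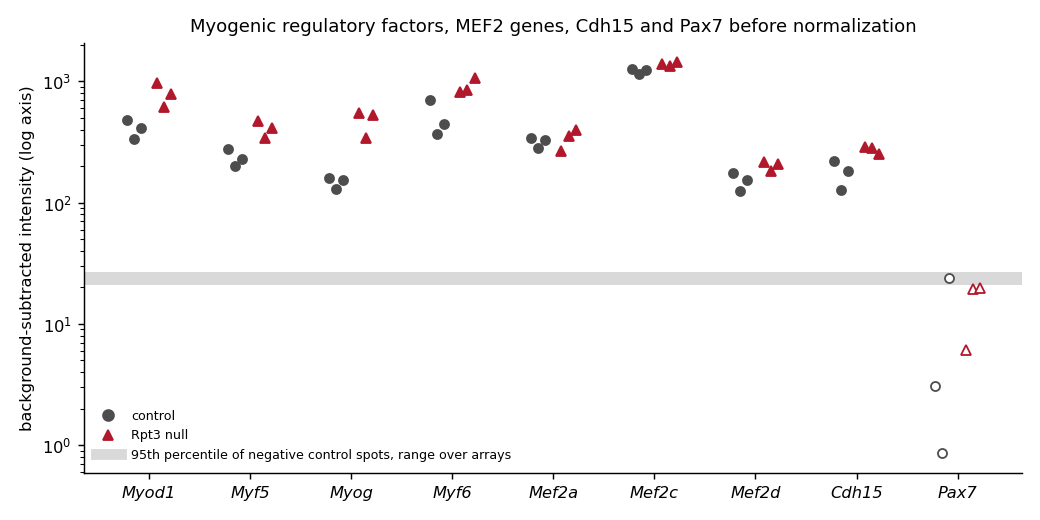
Background-subtracted scanner intensity before normalization, on a log axis, of the 9 genes in the control mice (gray circles) and the Rpt3 null mice (red triangles), with the brightest probe for Mef2a. The gray band is the range over arrays of the 95th percentile of negative control spots, which only Pax7 (open symbols) reaches down to.

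None of the MEF2 genes passed the test. Their spots were flagged as good on all arrays. For Mef2c, the form most needed in developing muscle, the log2 intensity was 10.28, 10.32 and 10.32 in the Rpt3 null mice. In the control mice it was 10.21, 10.73 and 10.53. The Rpt3 null values lay close together inside the range of the controls. The log2 fold change was -0.18 ± 0.15 (SE, adjusted p = 0.449 from limma), with a 95% confidence interval from -0.52 to 0.15, and it was 0.06 with median centring. Before normalization the intensity of Mef2c was 1337 to 1437 in the Rpt3 null mice and 1143 to 1269 in the control mice.

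Mef2a was measured by a pair of probes, both with good spots on all arrays. The brighter had a log2 intensity of 8.24, 8.51 and 8.70 in the Rpt3 null mice and of 8.29, 8.95 and 8.70 in the control mice, which overlapped. Its log2 fold change was -0.17 ± 0.19 (SE, adjusted p = 0.593 from limma), with a 95% confidence interval from -0.58 to 0.25. Its other probe gave 0.14 (adjusted p = 0.493 from limma over all 24882 tested probes). In the fit over probes 9.51% of all tested probes were higher and 5.31% lower, and of the 10 probes of these genes those of Myog and Myf6 passed.

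Mef2d encodes the form whose muscle variant takes over in differentiated fibers. The log2 intensity was 8.003, 7.71 and 7.97 in the Rpt3 null mice and 7.53, 7.99 and 7.78 in the control mice. The groups overlapped, and the log2 fold change was 0.13 ± 0.15 (SE, adjusted p = 0.616 from limma), with a 95% confidence interval from -0.21 to 0.48. With Actb centring Mef2a, Mef2c and Mef2d had log2 fold changes of -0.83, -0.71 and -0.57, each with an adjusted p under 0.05 from limma. Actb, which encodes beta-actin, had itself a log2 fold change of 0.45 after quantile normalization (limma, adjusted p = 0.0294). The Actb centring was applied to median-centred arrays instead. It gave a median of -0.72 over all tested genes, against 0.05 with median centring alone. Relative to the median under Actb centring the values were 1.19 for Myog, 0.68 for Myod1, 0.65 for Myf6, 0.50 for Myf5, 0.35 for Cdh15, 0.15 for Mef2d, 0.01 for Mef2c and -0.11 for Mef2a. Because Actb centring shifts all genes of an array alike, these repeat the median-centred values relative to their own median. They are therefore no separate check of the direction under Actb centring.

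The separation of the groups depended on the scale. After quantile normalization all Rpt3 null mice were above all control mice for 4 of the 8 genes, namely Myog, Myf6, Myod1 and Cdh15, against 21.1% of all tested genes. All of them were below the controls for 0 of the 8, against 15.6% of all tested genes. Before normalization the 3 Rpt3 null mice were above the controls for 7 of the 8, every gene but Mef2a, against 28.6% of all tested genes. With median centring it was 5 of the 8 against 26.6%, and with Actb centring 1 of the 8, Myog, against 3.54%, with Myf5, Mef2a, Mef2c and Mef2d below. Before normalization the median intensity of an array was 87.3 to 101 in the Rpt3 null mice and 52.7 to 114 in the control mice, and the part of brightness in the unnormalized count was not tested.

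The same arrays tended to be extreme within a group. Control mouse 1 had the lowest normalized value of the controls for 7 of the 8 genes, which it had for 44.7% of all tested genes. Control mouse 2 had the highest for 7 of the 8, against 45.4% of all tested genes. Among the Rpt3 null mice, mouse 2 was the lowest for 4 of the 8 and the highest for 0, against 33.4% and 29.3% of all tested genes, and mouse 1 was the highest for 5 of the 8, against 31.5%. Without Rpt3 null mouse 3 or control mouse 3 only Myog passed among the 8 genes, where 7.83% and 7.38% of all tested genes were higher. Without control mouse 2 Myod1 and Myf5 passed beside Myog and Myf6, where 15.7% of all tested genes were higher. The unpaired test named in the study's methods gave, without adjustment, Myog, Myf6 and Cdh15 as higher, against 17.0% of all tested genes, and none of the 8 after adjustment.

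The genes whose log2 intensity followed these genes most closely over the 6 arrays were named by Pearson's r among 12141 genes above background on every array. For Myog they were Tomm34, which encodes a mitochondrial import receptor subunit (r = 0.998), Vmac and Eloc. For Myod1 they were Fst, which encodes the activin and myostatin binding protein follistatin (r = 0.999), Fbln5 and Rpp38. For Myf6 they were Bcap31, which encodes a chaperone of the endoplasmic reticulum (r = 0.991), Armh4 and Ube2j2. For Myf5 the closest was Col18a1, for Cdh15 Ccser2, for Mef2a Vamp4, for Mef2c Gfod2 and for Mef2d Meis1. With 6 points in 2 groups such values describe these arrays only.

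Genes of muscle differentiation and fusion, listed here as differentiation and fusion targets, included Myl4 and Myh8, which rose most among the genes of the lists examined. Which of these genes the myogenic factors and MEF2 act on was not tested. Of the 24 tested genes 12 were higher and 2 lower, and their median log2 fold change was 0.51. For this list and those that follow, the counts stand beside 12.7% of all tested genes that were higher and 6.56% that were lower. Myl4, the embryonic and atrial light chain, had a log2 intensity of 12.10, 11.61 and 11.99 in the Rpt3 null mice and of 7.71, 8.25 and 7.71 in the control mice, a log2 fold change of 4.01 ± 0.19 (SE, adjusted p = 3.33e-06 from limma). The log2 fold change was 3.50 for Myh8, the perinatal myosin heavy chain, 2.90 for Chrng, a fetal acetylcholine receptor subunit, and 2.49 for Tnnt2, the cardiac and embryonic troponin T. Chrng and Tnnt2 were above background on all 3 Rpt3 null arrays but on 1 control array each, so they entered the test through the group in which they were high and their fold changes rest on control values mostly near background. All 4 remained above 0 with Actb centring. Rpt3 null mouse 2 was the lowest of its group for Myl4, Myh8, Chrng and Tnnt2, as it was for Myog and for 33.4% of all tested genes. That order was not particular to these genes, since the same mouse was the lowest for the macrophage markers Cd14, Aif1 and Tyrobp, though not for Lyz2. The genes that fell were Mybph, a myosin binding protein, with -1.49, and Actc1, the cardiac actin, with -0.72. Mymk, which encodes the fusion protein myomaker, had a log2 fold change of 0.42 (limma, adjusted p = 0.0638) and Des, which encodes desmin, of 0.37 (limma, adjusted p = 0.0514).

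Among the partners and inhibitors of the basic helix-loop-helix factors 1 of 13 tested genes was higher and 0 lower, with a median of 0.11. It was Id2, which encodes an inhibitor that binds E proteins, with a log2 intensity of 8.80, 8.59 and 8.63 in the Rpt3 null mice against 7.52, 7.95 and 7.74 in the control mice. Its log2 fold change was 0.94 (limma, adjusted p = 0.00169) and 0.27 with Actb centring, where it did not pass. The E protein genes Tcf4, with 0.28, and Tcf12, with -0.11, did not pass.

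Among the regulators and cofactors of MEF2 5 of 22 tested genes were lower and 0 higher, with a median of -0.15. Smyd1, which encodes a muscle methyltransferase, had a log2 fold change of -1.28 by its brighter probe, and its other probe did not pass with -0.31. Ppp3cb, a calcineurin catalytic subunit, had -1.04 by its brightest probe. Its other probes had -1.14, which passed (adjusted p = 0.0144 from limma over probes), and -0.185, which did not. Mapk14, the p38 alpha kinase, had -0.99. Ppp3r1, the calcineurin regulatory subunit, had -1.25 with groups that overlapped and did not pass without Rpt3 null mouse 1, 2 or 3 or without control mouse 3. The fifth was Smarcd3. The count was 3 without Rpt3 null mouse 2, without Rpt3 null mouse 3 or without control mouse 3.

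Of 19 tested factors that act upstream of or beside the myogenic factors 5 were lower and 0 higher, with a median of -0.22. These were Pax3, Sox6 (-0.68), Nfix (-0.58), Srf (-0.53) and Rbm24. The other probes of Nfix and Rbm24, with -0.19 and -0.20, did not pass. Pax3, a paralog of Pax7, had -1.34 by an expressed sequence probe and 0.14 by its RefSeq probe (adjusted p = 0.681 from limma over probes), so its probes disagreed and only the former passed. Without control mouse 3 the count was 0, and it was 1 without Rpt3 null mouse 1, 2 without control mouse 2 and 3 without Rpt3 null mouse 2.

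Of 22 tested satellite cell genes 3 were higher and 4 lower, with a median of 0.05, and most did not pass. The share that was higher was near the 12.7% of all tested genes. Sdc4, which encodes syndecan-4, had a log2 fold change of 1.27, and Ncam1, which is also expressed in denervated fibers, of 1.61 by its brightest probe, with 0.41 and -0.19 by its other probes, which did not pass. Cav1, which encodes caveolin-1 and is also abundant in endothelium, had -1.51 and did not pass without Rpt3 null mouse 1, and Pax3 was counted by the probe named above. Calcr (-0.09), Vcam1 (0.09) and Megf10 (0.16), which mark quiescent satellite cells more narrowly, did not pass. Other genes of the list did. Itga7 was higher with 0.87 (limma, adjusted p = 0.0140). Hey1 was lower with -0.79 and groups that overlapped (limma, adjusted p = 0.0468). Chrdl2, above background on 1 Rpt3 null array, was lower with -0.51 (limma, adjusted p = 0.0284). Sdc3 did not pass by its brighter probe (0.30). Its other probe had 0.87 and passed (adjusted p = 0.00749 from limma over probes). The count of lower genes was 1 without Rpt3 null mouse 1 or without control mouse 3, and 2 without Rpt3 null mouse 3 or without control mouse 2. In RNA of whole muscle, fewer cells of a type and less RNA per cell cannot be told apart.

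Of 11 tested denervation genes 5 were higher and 1 lower, with a median of 0.32. Besides Chrng and Ncam1, Fbxo32, the gene of the ubiquitin ligase atrogin-1, had a log2 fold change of 1.92 and Gadd45a, a stress gene that responds to denervation, of 1.75. The gene that was lower, Dach2, a repressor of Myog in mouse muscle, was above background on 1 Rpt3 null array, had -0.61 and did not pass without Rpt3 null mouse 1, without Rpt3 null mouse 2 or without control mouse 3. Of 13 tested proliferation genes 3 were higher and 0 lower, with a median of 0.30. Cdk1, above background on 1 control array, had 1.33, Mki67 had 1.06 and Birc5 had 1.04. Without control mouse 2 the count of higher proliferation genes was 6.

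Macrophage markers were among those that were higher with Myog. Of 6 tested macrophage markers 5 were higher and 0 lower, with a median of 1.24, among them Lyz2 with 1.56, Cd14 with 1.38, Aif1 with 1.31 and Tyrobp with 1.17. Their summed intensity was 2398 to 2938 in the Rpt3 null mice and 1023 to 1214 in the control mice, while Adgre1 and Itgam were not above background on 3 arrays. Aif1 and Fcgr1 were above background on 1 control array each, and 3 macrophage markers were higher among genes above background on all 6 arrays. Of 7 fibroblast and fibro-adipogenic progenitor markers 3 were higher and 0 lower, with a median of 0.42, among them Pdgfra with 0.78, Ly6a with 0.63 and Col3a1 with 0.55 (but -0.19 with Actb centring, and not past the test without control mouse 3), and their summed intensity was 27707 to 29225 against 18836 to 21994. Of 7 slow fiber markers 5 were higher and 0 lower, with a median of 0.74 (Tnni1 1.36, Tnnc1 1.33, Tnnt1 1.23 and Myl2 0.74). Myh7 had 0.37 by either of its probes, and Myl3 had -0.25 by its brighter probe and 0.16 by its other. None of these probes passed. Of 12 fast fiber markers 1 was higher, Myh1 with 0.70, and 2 were lower, Myl1 with -0.85 and Actn3 with -0.64 (not past the test without control mouse 3). The median of the fast fiber markers was -0.18. With cyclic loess 8 of the fast fiber markers were lower. After quantile normalization the same high log2 intensities recurred among these markers, such as 14.86 in Ckm, Tnnc2 and Atp2a1. Whether such a ceiling held down their fold changes was not tested. Myh4, which did not pass by its brightest probe (-0.26), had -1.79 by its other probe (adjusted p = 0.000453 from limma over probes). None of the 5 endothelial, 5 Schwann cell or 1 cardiac genes tested passed, the lowest adjusted p from limma of the first and last of these lists being 0.0966 for the endothelial gene Pecam1 (-0.67) and 0.482 for the cardiac gene Tnni3 (-0.17). With Actb centring the counts of higher and lower genes were 7 and 7 for the differentiation and fusion targets, 0 and 9 for the partners and inhibitors, 0 and 17 for the MEF2 regulators, 0 and 17 for the upstream factors, 2 and 14 for the satellite cell genes, 4 and 5 for the denervation genes, 1 and 5 for the proliferation genes, 3 and 1 for the macrophage markers, 0 and 0 for the fibroblast markers, 3 and 1 for the slow and 0 and 11 for the fast fiber markers, and 0 and 4, 0 and 4 and 0 and 1 for the endothelial, Schwann cell and cardiac genes. The part of these cells in the values of Myog and Myf6 was not tested.

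**Figure D4:**
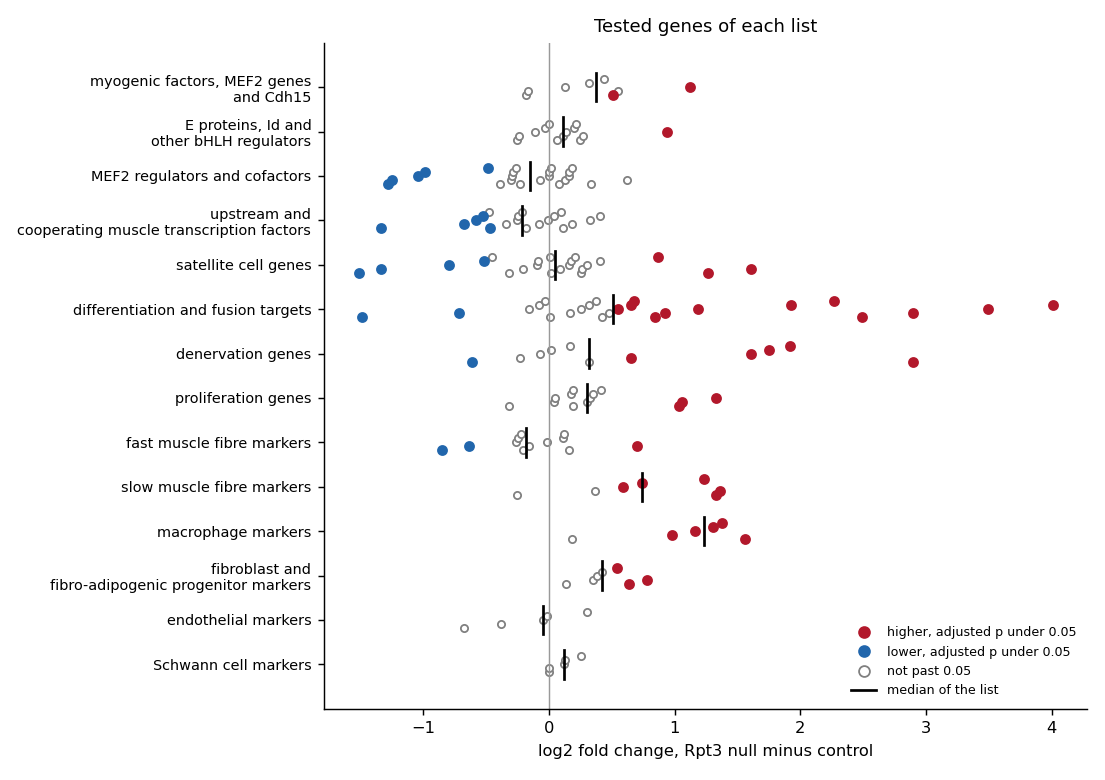
Log2 fold change, Rpt3 null minus control, of each tested gene of the lists (1 point per gene, red for higher and blue for lower where the adjusted p of limma was under 0.05, open otherwise), with the median of each list as a black line. The myogenic factors with Cdh15 and the MEF2 genes spread from -0.18 for Mef2c to 1.12 for Myog, and the differentiation and fusion targets reach 4.01 for Myl4.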

How the data were processed

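Total RNA of mouse hindlimb muscle was labeled with Cy5 and hybridized to 1-color CodeLink whole-genome arrays, 3 mice per group, without dye swaps. The deposited scanner reports give, for each spot, the mean intensity, the background around it and the flag of its quality that the authors' CodeLink Expression Analysis 5.0.0.31312 wrote, and the arrays were not normalized to each other there. A further table of intensities on a linear scale, deposited by the authors, followed the background-subtracted report of the same array (Pearson's r of log2 values 0.997 to 0.9998). It was floored at 16 and used as an alternative. How it was normalized was not stated in the sources used here. Groups were taken from the genotype in the labels, where the mice are numbered separate samples. p-values measure the spread between these samples.

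Of 34967 transcript probes 21615 had 1 gene symbol in the platform annotation, 681 had several and were left unnamed, 536 were named through their accession in the RefSeq table of GRCm38.p6 and 12135 stayed unnamed. Background was corrected by normexp (offset 50) in limma 3.58.1 under R 4.3.3, then contaminated and masked spots and the 1260 control spots were removed. After quantile normalization lmFit and eBayes were run on log2 intensities of 14732 genes, each by its brightest probe above background on at least 3 arrays. Benjamini-Hochberg adjusted p-values under 0.05 were called. The number of arrays limits the precision. Genes and lists were chosen with earlier results of these data known. Every one of the 9 genes was named, in each list up to 4 called genes with the largest change (or the gene of lowest adjusted p), and for each tested gene the closest genes by correlation. A gene that this rule takes is not reported here. Smarcd3, Rbm24, Dach2, Mybph, Actc1, Mymk, Des, Tcf4, Tcf12, Calcr, Vcam1, Megf10, Itga7, Hey1, Chrdl2, Sdc3, Adgre1, Itgam, Myh6, Myl7, Fcgr1, Myh4, Myh7, Myl3, Ckm, Tnnc2, Atp2a1 and Actb were named after their values were seen. The fit was tested on simulated intensities. Promoter windows were read from the RefSeq table with Python 3.11.15. The 23 alternatives were other background corrections, normalizations, filters, probe rules and variance models, the authors' table, the unpaired test of the methods, the replicate number as a block and each array left out.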

Additional observations from a re-analysis of the deposited data

How the results depend on the processing

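Myog kept its direction under all 23 alternatives and Myf6 under all but Actb centring. Of the 8 genes 1 was higher with plain background subtraction, with the authors' table, with array weights and with a replicate block, 5 with median centring, and 0 with Actb centring and with the adjusted unpaired test of the methods, and 3 were lower with Actb centring. Leaving out 1 array gave 1 to 4 higher. Over all genes 1870 were higher and 967 lower. Leaving out 1 array gave 1087 to 2315 higher and 389 to 1444 lower, Actb centring 329 and 10327, the adjusted unpaired test 940 and 427, median centring 600 lower and the unadjusted unpaired test 1636 lower. The replicate numbers were not treated as pairs in the main fit. Deviations of same-numbered mice from their group means correlated at 0.13, -0.44 and 0.10, and those of differently numbered mice at -0.48 to 0.47. With 3 mice per group these values cannot decide whether the mice were paired.

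The log2 fold change of Myf6 did not pass at 0.55 with plain subtraction (adjusted p = 0.0595), 0.54 with the authors' table (0.0605), 0.46 with array weights (0.0795), 0.51 with the adjusted unpaired test (0.0844) and 0.51 with the replicate block (0.0524), each from limma but for the unpaired test, and reversed to -0.07 with Actb centring. Leaving out 1 array gave 0.40 to 0.57 for Myf6, 0.97 to 1.33 for Myog and 0.40 to 0.70 for Myod1. Myog did not pass at 0.48 with Actb centring (adjusted p = 0.0553 from limma) and 1.12 with the adjusted unpaired test (0.0899). Myod1 passed at 0.55 without background correction, with a trend and with only genes above background on all 6 arrays, 0.57 with cyclic loess and 0.73 with median centring, and reversed to -0.035 with Actb centring, as did Myf5 to -0.22, Mef2d to -0.57 and Cdh15 to -0.37. Mef2c reversed to 0.063 with median centring. The causes were not tested. A block for slide was not run because each slide held 1 array. Signal near background limits Pax7.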
